A study of Mus musculus with 4 samples.

Results

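App, Aplp1, Aplp2, Bace1, Psen2, Ncstn, Adam10, Bin1 and Picalm are 9 of the 55403 features counted in single nuclei from mouse hippocampus. They were taken by symbol from the feature list as the amyloid precursor family, members of its secretases and a pair of endocytosis genes linked to Alzheimer's disease. All 9 were found. They were followed in 13 cell classes of 4 libraries, which gave 117 combinations of gene and class.

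Amyloid precursor protein, encoded by App, is a membrane protein that moves between the cell surface, endosomes and the Golgi. Cleavage by β-secretase, encoded by Bace1, followed by γ-secretase releases amyloid β peptides, whereas cleavage by the α-secretase Adam10 falls inside the peptide and prevents its release. Psen2 encodes a catalytic subunit of γ-secretase and Ncstn its substrate-binding subunit nicastrin. Aplp1 and Aplp2 encode paralogues of the precursor that lack the amyloid β sequence. Bin1 encodes a membrane-bending protein of the amphiphysin family and Picalm a clathrin assembly protein. SORLA, the receptor overexpressed in 1 group of mice, sorts the precursor protein between the Golgi and endosomes.

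The 3 genotypes were WT (1 library), PS19 (2 libraries) and TG_PS19 (1 library). PS19 mice carry a transgene for human P301S tau of the 1N4R form, driven by the Prnp promoter, on a B6;C3 background. TG_PS19 mice carry that transgene and also SORLA-Rosa26, which overexpresses SORLA from CMV/β-actin promoter sequence and is not limited to a cell type by the labels. The mice were littermates from crosses of these lines, frozen hippocampi were pooled by group, and neither the age, the sex nor the number of animals in a pool is given in the labels. With 1 WT and 1 TG_PS19 library, only the PS19 pair shows how libraries of a genotype differ. Nothing in the labels says that this pair came from separate pools. Every p-value below thus rests on the spread between these 2 libraries, which may be technical and was pooled over genes, wholly or in part.

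The libraries held 20064025 to 48670533 UMIs (unique molecular identifiers, 1 per captured RNA molecule), and 4467 to 11458 nuclei each were kept. Pairs of libraries shared 5 to 32 cell barcodes. Reads of the human transgenes were counted as separate features, and human MAPT had 0 UMIs in WT, 332 and 455 in PS19 and 441 in TG_PS19, and human SORL1 had 2226 UMIs in TG_PS19 against 0 to 7 in the other libraries. TG_PS19 stood apart in sex-linked UMIs: 2144 nuclei had Xist and no Y-linked UMI, against 1 to 17 in each of the other libraries. A further 2797 TG_PS19 nuclei had both, against 46 to 87 in each other library, and 2885 had Y-linked UMIs and no Xist UMI. These UMIs therefore do not give the sex of every TG_PS19 nucleus. A cluster led by Ttr, Dynlt1a and Xist, with 643 of its nuclei in TG_PS19 and 2 to 19 in each other library, could not be named and was not used, nor was an unnamed cluster of 281 nuclei found in WT alone. Of the 13 classes, 11 were named from marker genes, and at least 4 markers of the list were raised in every cluster that received a name. The other 2 are called by leading genes: the Enpp6/Hapln2 cluster, in which all 8 oligodendrocyte markers were raised, and the excitatory Tshz2/Vwc2l cluster. The 9 genes were left out of the clustering.

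The promoters of the 3 precursor family genes are shown because Aplp1 and Aplp2 received 10 of the 11 genotype calls described below, and their paralogue App received 0. Each line gives the 100 bases upstream of the outermost annotated start, 5′ to 3′ on the gene's own strand, from RefSeq (GRCm38.p6). The intervals are chr16:85173767-85173866 for App, chr7:30445583-30445682 for Aplp1 and chr9:31211849-31211948 for Aplp2, all on the minus strand. Capitals mark the GC box GGGCGG, searched on both strands.
App: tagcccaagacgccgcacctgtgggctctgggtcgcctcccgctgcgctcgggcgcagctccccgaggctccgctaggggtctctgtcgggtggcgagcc
Aplp1: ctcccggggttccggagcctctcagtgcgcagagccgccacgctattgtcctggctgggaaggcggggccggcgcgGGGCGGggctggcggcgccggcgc
Aplp2: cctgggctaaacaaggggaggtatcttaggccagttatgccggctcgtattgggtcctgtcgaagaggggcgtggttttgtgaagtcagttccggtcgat
The Aplp1 window had 1 match and a GC content of 79%. The App window had 0 matches and 74% GC, and the Aplp2 window 0 matches and 55% GC. The motif was present in 24.7% of the 32851 windows of 100 bases before RefSeq starts.

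App was highest in oligodendrocytes. Its level, in UMIs per 1000000 UMIs of the class (CPM), was 1457 in WT, 1697 and 1553 in PS19 and 1366 in TG_PS19, with a geometric mean over the 4 libraries of 1513. The Enpp6/Hapln2 cluster (1304) and endothelial cells (1226) followed, and the ranges of these 3 classes overlapped. Astrocytes were lowest at 199, so that App was 7.62-fold higher in oligodendrocytes. Neurons lay between these extremes: Cajal-Retzius neurons had 831, inhibitory neurons 546, the Tshz2/Vwc2l cluster 533, CA1 pyramidal neurons 475 and dentate granule neurons 355 CPM. Microglia had 226 and overlapped astrocytes. The App gene spans chr16:84949685-85173766 in GRCm38 on the minus strand. Introns make up 94.2% of it, and 5 other annotated genes lie inside it on the opposite strand. Such partners were counted as features of their own, for example Gm49226 at 47.9 CPM in oligodendrocytes. The counting is not stated to use strand in the sources used here. Whether any of their reads entered the count of the member is therefore not known here.

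Aplp1 was concentrated in the same glia. Oligodendrocytes had 1443 CPM in WT, 1760 and 1103 in PS19 and 918 in TG_PS19, and the Enpp6/Hapln2 cluster had 1167, 1452, 915 and 735. No other class exceeded 359 CPM in any library. Dentate granule neurons came next (geometric mean 272) and oligodendrocyte precursors were lowest (105), so that the level was 12.1-fold higher in mature oligodendrocytes than in their precursors. From dentate granule neurons downward the ranges of all neighbours in the order overlapped. Aplp1 is the shortest of the 9 genes, at 10554 bases (chr7:30434982-30445535), and 28.6% of it is exonic.

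Aplp2 had the flattest profile of the family. Endothelial cells were highest, with 377 CPM in WT, 353 and 363 in PS19 and 251 in TG_PS19, and CA1 pyramidal neurons were lowest, with 86.8, 85.3, 78.9 and 75.3. These ends were 4.08-fold apart, and every pair of neighbours in the order of classes overlapped. Fibroblasts (272), oligodendrocytes (234) and Cajal-Retzius neurons (220) stood near the top, and microglia (101) near the bottom. The gene lies at chr9:31149557-31211815.

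**Figure D1:**
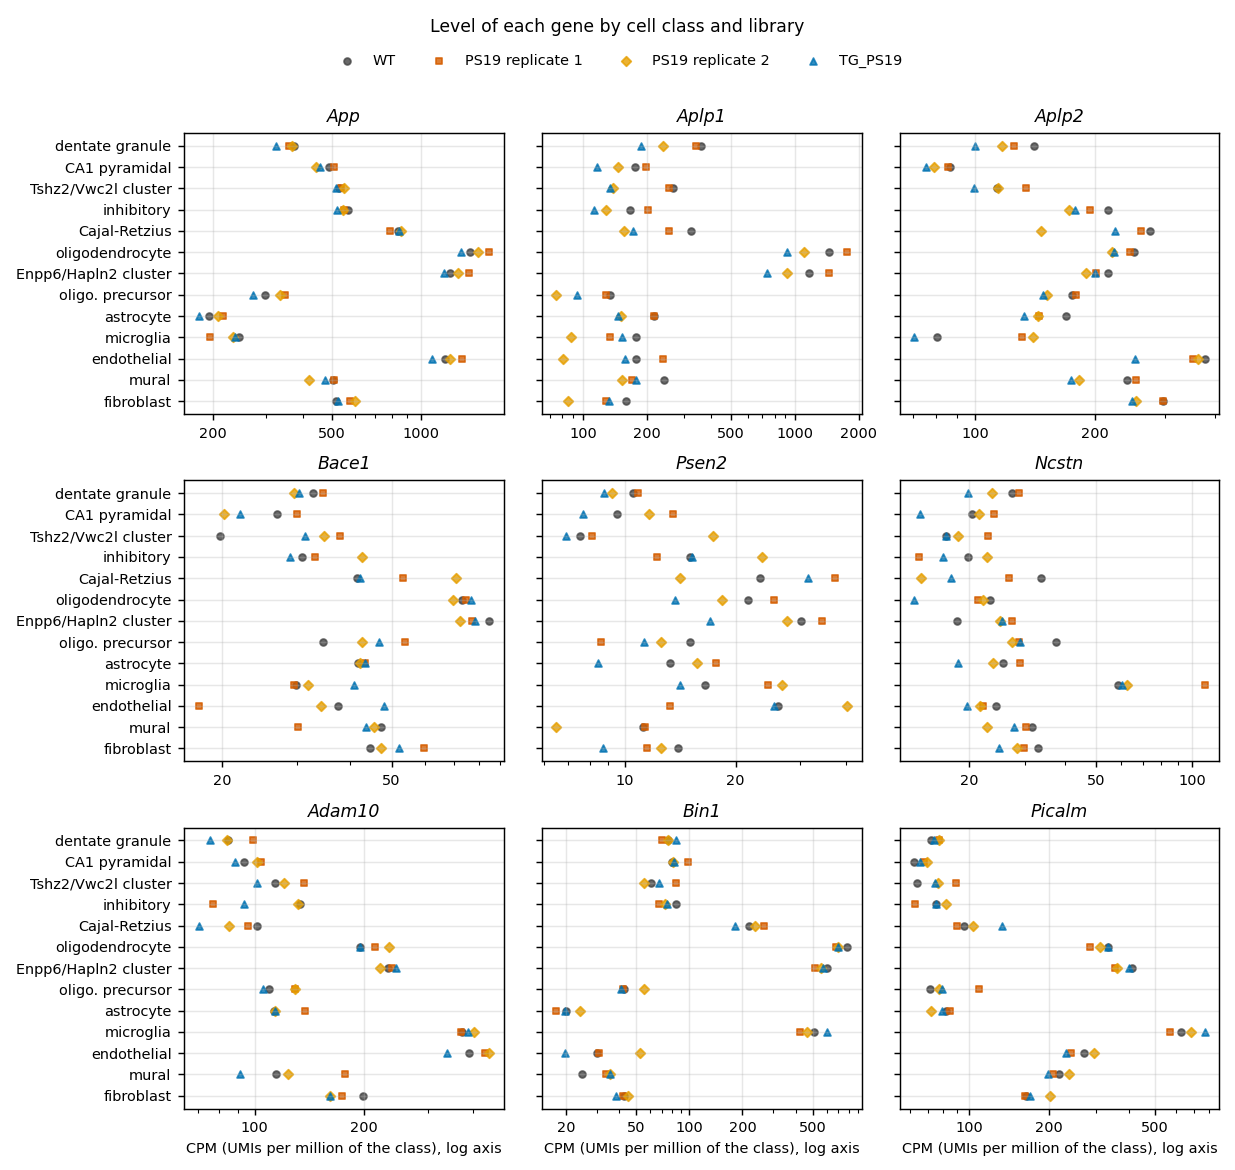
Level of each of the 9 genes (CPM, log axis, a separate range for each gene) in 13 cell classes, with 1 marker per library. App and Aplp1 sit highest in oligodendrocytes and the Enpp6/Hapln2 cluster, Ncstn and Picalm in microglia, and Bin1 in all of these classes. Psen2 at 0 in mural cells of TG_PS19 is not drawn.

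Among the secretase genes, Bace1 was highest in the Enpp6/Hapln2 cluster and in oligodendrocytes, whereas oligodendrocyte precursors had 43.8 CPM. The Enpp6/Hapln2 cluster had 84.8 CPM in WT, 77.3 and 72.3 in PS19 and 78.4 in TG_PS19, and oligodendrocytes had 73.2, 74.8, 69.7 and 76.9. These 2 classes overlapped each other, and oligodendrocytes also overlapped the next class, Cajal-Retzius neurons at 50.6. CA1 pyramidal neurons were lowest at 24.5, which was 3.19-fold below the top. The 3′ end of Bace1 (chr9:45838580-45864399) overlaps Rnf214, a protein-coding gene on the opposite strand, and 2 further loci on that strand lie inside it.

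Adam10 was highest in endothelial cells and microglia. Endothelial cells had 390 CPM in WT, 432 and 443 in PS19 and 339 in TG_PS19, and microglia 372, 370, 401 and 387, with overlapping ranges. Both stood apart from the next class, the Enpp6/Hapln2 cluster at 234, and dentate granule neurons were lowest at 85.3, a 4.68-fold span. The 5 neuronal classes all lay between 85.3 and 117 CPM. Adam10 lies at chr9:70678997-70780229 and was the secretase gene of the list with no overlapping annotated gene.

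Ncstn was found in all 13 classes and was highest in microglia. Microglia had 58.6 CPM in WT, 110 and 62.4 in PS19 and 60.5 in TG_PS19, and this range did not overlap that of the next class, oligodendrocyte precursors at 30.3. The remaining classes fell to 18.0 in inhibitory neurons, 3.91-fold below microglia. PS19 replicate 1 stood above the other 3 libraries. Ncstn (chr1:172066013-172082795) overlaps the opposite-strand gene Copa at its 5′ end, and Copa too was highest in microglia.

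Psen2 was sparse in every class. Geometric means ran from 9.24 CPM in the Tshz2/Vwc2l cluster to 26.4 in the Enpp6/Hapln2 cluster, and every pair of neighbours overlapped. Mural cells of TG_PS19 had 0 UMIs, where 3 UMIs would give 11.9 CPM. After thinning each nucleus to 1000 UMIs, the highest class was Cajal-Retzius neurons, so the order of Psen2 could not be resolved at this depth. The gene lies at chr1:180227004-180263438.

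Bin1 had the widest range of the 9 genes. Oligodendrocytes had 784 CPM in WT, 679 and 692 in PS19 and 692 in TG_PS19. The Enpp6/Hapln2 cluster had 606, 514, 554 and 573, and microglia 509, 422, 462 and 599. Astrocytes were lowest, with 19.96, 17.7, 24.1 and 19.8, so that the span was 35.1-fold. Among neurons, Cajal-Retzius neurons stood out at 223 CPM against 66.1 to 85.3 in the other neuronal classes, and their ranges did not overlap. In nuclei thinned to 1000 UMIs, 46.3% to 51.8% of oligodendrocyte nuclei and 29.1% to 44.0% of microglial nuclei had a Bin1 UMI, against 1.46% to 2.60% of astrocyte nuclei. Unthinned, the shares were 69.6% to 80.2%, 52.6% to 64.0% and 5.83% to 9.64%, at median depths of 1821 to 2876 UMIs in oligodendrocytes and 2903 to 4508 in astrocytes. The astrocyte nuclei were deeper and nevertheless held the gene less often.

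Picalm was highest in microglia, with 628 CPM in WT, 571 and 685 in PS19 and 770 in TG_PS19. The Enpp6/Hapln2 cluster had 410, 353, 360 and 398, and oligodendrocytes 333, 286, 311 and 334. Both steps were without overlap. Endothelial (259), mural (215) and fibroblast (174) nuclei followed, and the neuronal classes other than Cajal-Retzius neurons lay at 66.2 to 75.5. CA1 pyramidal neurons were lowest, 9.96-fold below microglia. Picalm spans chr7:90130213-90213465 on the plus strand, and 4 loci annotated on the same strand lie inside it.

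The genes whose profile over the 13 classes was most like a member's were found by Pearson's r of the mean log2(CPM + 10), among 13023 genes. These r values describe points that share libraries and depth and carry no test. App was matched by Gm49226 (r = 0.97), which lies antisense inside App, and Picalm by Gm45223 (r = 0.98), which lies on the same strand inside Picalm. In both cases the partner overlaps the member, so the likeness may not be independent of the shared locus. Of the others, Aplp1 was most like Lgi3 (0.96), Bin1 like St3gal3 (0.96), Ncstn like Mknk1 (0.97), Adam10 like Dram2 (0.96), Bace1 like Slc20a2 (0.95), Aplp2 like Rcan2 (0.93) and Psen2 like Exoc1 (0.88).

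The genotype comparisons ask whether tau changed these genes and whether added SORLA changed them in tau mice. Counts were summed per class and library and tested with edgeR's quasi-likelihood test, with Benjamini-Hochberg adjustment over all genes of the class at 0.05, and 112 of the 117 combinations passed the filter on low counts. In PS19 against WT, 2 of 112 combinations were called (1.79%), 1 higher and 1 lower. Of all genes tested in these classes 2.82% were called, 1.34% higher and 1.48% lower. In TG_PS19 against PS19, 5 of 112 were called (4.46%), 1 higher and 4 lower, against 4.58% of all genes, 2.96% higher and 1.62% lower. In TG_PS19 against WT, 4 of 112 were called (3.57%), all lower, against 1.70% of all genes, 1.21% higher and 0.498% lower. The share of members called was thus near or below that of all genes in the first 2 comparisons. The median log2 fold change over the 112 combinations was 0.01, -0.08 and -0.06 in these comparisons. The 3 comparisons share libraries and are not independent. DESeq2 called 0 of the combinations in each comparison, also at an unadjusted p under 0.05, where edgeR had 10, 15 and 13.

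App, Bace1, Psen2, Ncstn, Adam10 and Picalm had no call in any class or comparison. In simulated counts the test called few changes of 1.5-fold, so a missing call does not show that a level was unchanged. For App the fitted log2 differences stayed between -0.19 and 0.23 for PS19 against WT, between -0.24 and 0.22 for TG_PS19 against PS19 and between -0.08 and 0.08 for TG_PS19 against WT, over 13 classes. Adam10 ranged from -0.29 to 0.40, from -0.68 to 0.15 and from -0.46 to 0.17 in the same order. Psen2 was below PS19 in TG_PS19 in 10 of 11 classes tested, with a median of -0.59 and a lowest adjusted p of 0.081 in astrocytes, where its levels were 13.2 CPM in WT, 17.7 and 15.7 in PS19 and 8.41 in TG_PS19. With class totals Psen2 was called in astrocytes, and with doublets kept, or with TG_PS19 nuclei limited to those with Y-linked and no Xist UMIs, in the Enpp6/Hapln2 cluster. The astrocyte class also differed in make-up: cluster 13, led by Myoc and Gfap, held 6.59% of its nuclei in WT, 22.7% and 20.6% in PS19 and 4.43% in TG_PS19. Psen2 was 22.3, 28.9, 21.6 and 19.2 CPM in cluster 13 and 11.3, 12.4, 12.1 and 7.47 in cluster 2, which held most of the WT and TG_PS19 astrocytes. The part of this shift in the Psen2 values was not tested.

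**Figure D2:**
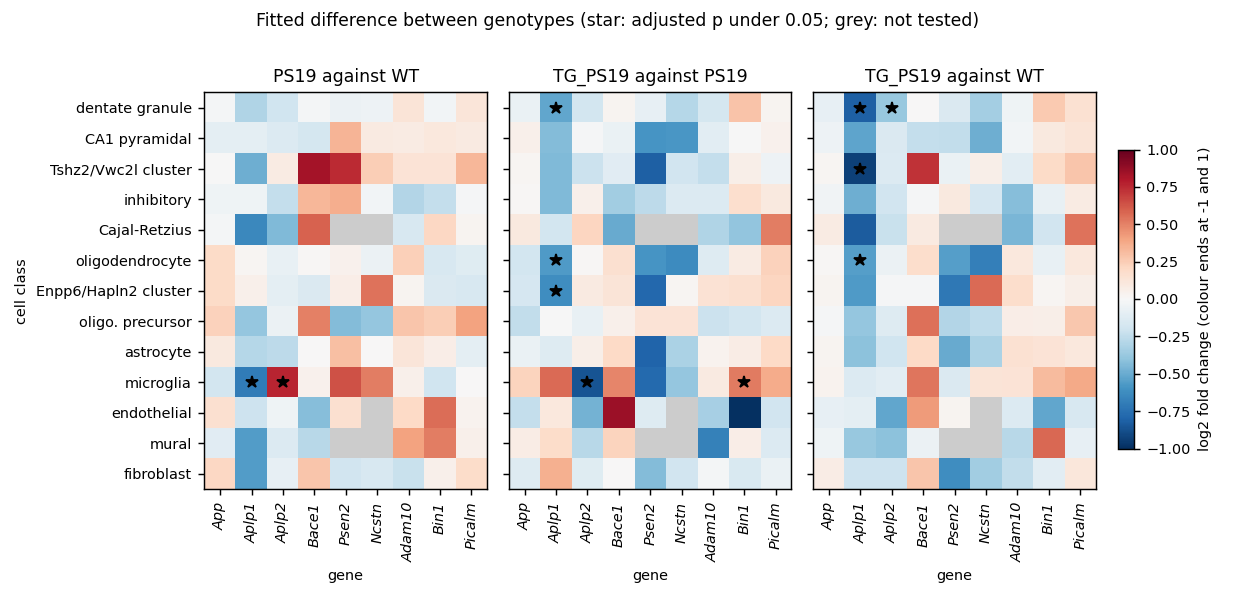
Fitted log2 fold change of the 9 genes (columns) in 13 cell classes (rows) for the 3 comparisons, red where the first-named genotype is higher and blue where it is lower, with stars at an adjusted p under 0.05. The Aplp1 column of TG_PS19 against WT is blue in all 13 classes, and the stars are on Aplp1, Aplp2 and Bin1.

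Aplp1 gave 7 of the 11 calls, and 6 of these were lower values in TG_PS19. In the classes concerned, 9.48% (dentate granule neurons), 8.45% (oligodendrocytes) and 3.77% (Enpp6/Hapln2 cluster) of all genes were called for TG_PS19 against PS19. For TG_PS19 against WT the shares were 6.16% in dentate granule neurons, 2.41% in oligodendrocytes and 0.481% in the Tshz2/Vwc2l cluster. In dentate granule neurons its level was 359 CPM in WT, 342 and 238 in PS19 and 188 in TG_PS19. TG_PS19 was the lowest of the 4, and PS19 replicate 2 stood apart from its partner. The log2 difference was -0.82 ± 0.11 (SE) for TG_PS19 against WT (edgeR adjusted p = 4.9e-10) and -0.52 ± 0.10 for TG_PS19 against PS19 (adjusted p = 3.1e-05). In oligodendrocytes, with the levels given above, TG_PS19 was again lowest, and the differences were -0.55 ± 0.14 against WT (edgeR adjusted p = 0.010) and -0.57 ± 0.13 against PS19 (adjusted p = 0.00031). The oligodendrocyte class held 2 clusters, and cluster 4 had 31.8% of its nuclei in WT, 45.0% and 47.3% in PS19 and 33.4% in TG_PS19. Aplp1 was 1408, 1719, 1076 and 906 CPM in cluster 0 and 1525, 1812, 1132 and 943 in cluster 4, with the same order of libraries in both. In the Enpp6/Hapln2 cluster the difference from PS19 was -0.62 ± 0.15 (edgeR adjusted p = 0.0018). The Tshz2/Vwc2l cluster had 265 CPM in WT, 254 and 139 in PS19 and 133 in TG_PS19, and -0.93 ± 0.25 for TG_PS19 against WT (edgeR adjusted p = 0.035). Over all classes TG_PS19 was below WT in 13 of 13, both with TMM scaling and with class totals. Of the 4056 genes tested in every class, 2.10% were lower in all 13 with TMM scaling and 4.83% with class totals. Aplp1 and Aplp2 were 2 of the 7 members tested in every class and were lower in all 13. Thinning to 1000 UMIs ended the calls in dentate granule neurons against PS19, in oligodendrocytes and in the Tshz2/Vwc2l cluster, and class totals and adjusted residual degrees of freedom ended that in oligodendrocytes against WT, over a range of adjusted p of 0.0057 to 0.9993. The call in the Tshz2/Vwc2l cluster also ended with no filter on low counts (edgeR adjusted p = 0.060, range over alternatives 0.010 to 0.9999).

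The PS19 pair differed in Aplp1 by more than the genotypes did at the median over classes. PS19 replicate 1 was above replicate 2 in 13 of 13 classes, by 1.11-fold to 2.95-fold with a median of 1.57-fold, which is 0.65 on the log2 scale. The median over classes for TG_PS19 against WT was -0.48, that for PS19 against WT -0.30 and that for TG_PS19 against PS19 -0.19. In oligodendrocytes the pair differed by 0.67 on the log2 scale and in the Enpp6/Hapln2 cluster by 0.67, more than the genotype differences called there, and in dentate granule neurons by 0.52. In 12 of these classes, all but mural cells, the gap was larger than that of at least 93.0% of genes with as many UMIs. This order held in every class for 0.789% of the 4056 genes with TMM scaling and 1.06% with class totals. No other member had its replicates ordered the same way in every class, and the next were Aplp2 and Ncstn, higher in replicate 1 in 11 of 13. Without PS19 replicate 1 the TG_PS19 difference from PS19 was -0.26 in dentate granule neurons, -0.21 in oligodendrocytes and -0.27 in the Enpp6/Hapln2 cluster. Without PS19 replicate 2 it was -0.75, -0.87 and -0.91. The direction was kept, and the size in each case depended on which PS19 library was used. In dentate granule neurons, oligodendrocytes, the Enpp6/Hapln2 cluster and the Tshz2/Vwc2l cluster the main fit took the variance wholly from the trend over genes. The gap of Aplp1 itself between the PS19 libraries therefore did not enter its SE or p-value in these classes.

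Other measures of the libraries shared the order of the PS19 pair. The summed level of mitochondrial transcripts, a sign of RNA outside the nucleus, was higher in PS19 replicate 1 than in replicate 2 in 13 of 13 classes, by a median of 1.54-fold, and that of 85 ribosomal protein genes in 13 of 13, by a median of 1.19-fold. TG_PS19 was below WT in 6 of 13 classes for the mitochondrial sum and in 12 of 13 for the ribosomal sum. In oligodendrocytes the mitochondrial sum was 2041 CPM in WT, 2014 and 1310 in PS19 and 1866 in TG_PS19, and in dentate granule neurons 442, 528, 321 and 367. In dentate granule neurons the ribosomal sum was 2038 CPM in WT, 2198 and 1840 in PS19 and 1558 in TG_PS19, which is the order of Aplp1 with WT and PS19 replicate 1 exchanged. In oligodendrocytes the same sum was 2798, 2841, 2395 and 2578, and TG_PS19 was not the lowest. Oligodendrocyte markers, all 8 detected, summed to 559 CPM in dentate granule neurons of WT, 473 and 500 in PS19 and 490 in TG_PS19, against 19353 to 20369 in oligodendrocytes. Outside dentate granule neurons this sum too was higher in PS19 replicate 1 than in replicate 2, that is in 12 of 13 classes. The median ratio over the 13 classes was 1.16, with a range of 0.946 to 2.63. TG_PS19 was below WT in 8 of 13 for this sum. The part of these measures in the Aplp1 result was not tested. In TG_PS19 nuclei with Y-linked UMIs and no Xist UMI, all 6 of the lower Aplp1 values kept their call.

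**Figure D3:**
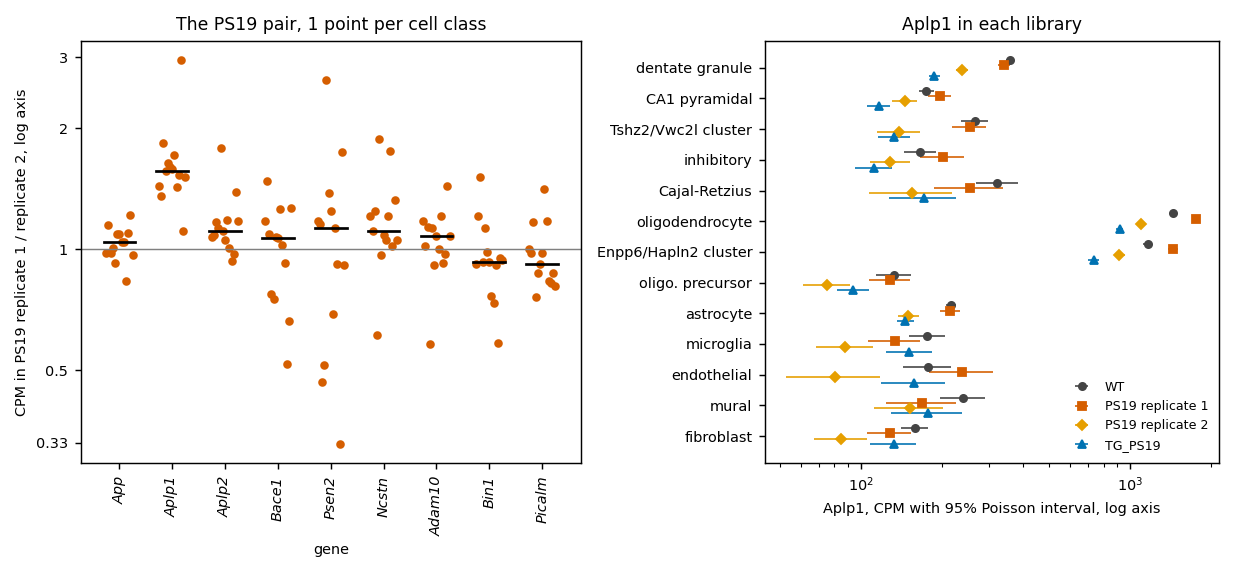
Left, ratio of the CPM in PS19 replicate 1 to that in replicate 2 (log axis) for each gene, with 1 point per class and a bar at the median. Right, Aplp1 CPM in each class and library with 95% Poisson intervals (log axis); only Aplp1 has all 13 ratios above 1, with a median of 1.57.

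Aplp2 was lower in TG_PS19 than in WT in 13 of 13 classes, again with either scaling. The call was in dentate granule neurons, with 141 CPM in WT, 125 and 117 in PS19 and 99.8 in TG_PS19. TG_PS19 was lowest and WT highest, and the log2 difference was -0.38 ± 0.12 (edgeR adjusted p = 0.032). With the TG_PS19 nuclei that had Y-linked UMIs and no Xist UMI the adjusted p in edgeR was 0.19, with no filter on low counts it was 0.086, and over all alternatives it ran from 0.0014 to 0.77.

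Microglia showed another pattern for Aplp2. Of the 9 genes, 2 were called in microglia for PS19 against WT and 2 for TG_PS19 against PS19, where 9.26% and 9.28% of all microglial genes were called. Its level was 80.3 CPM in WT (95% Poisson interval 63.4 to 100.2), 131 and 140 in PS19 (104 to 163 and 115 to 169) and 70.4 in TG_PS19 (52.2 to 92.8), with a PS19 mean of 135 ± 6.49 (SD, n = 2). Both PS19 libraries lay above WT and TG_PS19. The log2 difference was 0.76 ± 0.22 for PS19 against WT (edgeR adjusted p = 0.014) and -0.86 ± 0.25 for TG_PS19 against PS19 (adjusted p = 0.010). The intervals cover counting error only. Leaving out either PS19 library left 0.70 or 0.80, and -0.80 or -0.91. The change from WT to PS19 was larger in microglia than in dentate granule neurons by 1.02 ± 0.24 (edgeR adjusted p = 0.0019), than in oligodendrocytes by 0.86 ± 0.22 (adjusted p = 0.0093) and than in astrocytes by 1.07 ± 0.24 (adjusted p = 0.00071), in joint fits of each pair of classes in which 2.37%, 2.54% and 3.25% of all genes were called. For the change from PS19 to TG_PS19 these fits called 1.77%, 1.83% and 2.25% of all genes. These joint fits were added after the data were seen.

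The microglial class was not of the same make-up in each genotype. At the finer resolution it split into cluster 10, with 540 nuclei in WT, 46 and 50 in PS19 and 379 in TG_PS19, and cluster 15, with 40, 209, 233 and 28. All 8 microglial markers were raised in both, and cluster 10 was led by Siglech and cluster 15 by Ly86, Fyb and Myo1f. Within cluster 10 Aplp2 was 74.9 CPM in WT, 33.2 and 54.0 in PS19 and 70.9 in TG_PS19. Within cluster 15 it was 142, 148, 157 and 62.5. PS19 was not above WT within cluster 10, where the PS19 libraries held 46 and 50 nuclei. PS19 replicate 1 in cluster 10 and TG_PS19 in cluster 15 stood at the level that 3 UMIs give. The 11 UMIs of WT in cluster 15 gave an interval of 71.1 to 255. Such low counts cannot tell whether PS19 and WT differed within a cluster. These values describe clusters made from the same nuclei and were not tested.

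Aplp1 fell in PS19 microglia, from 177 CPM in WT to 134 and 87.9, with 152 in TG_PS19. Both PS19 libraries lay below the other 2, and the log2 difference from WT was -0.70 ± 0.20 (edgeR adjusted p = 0.0096). Without PS19 replicate 1 it was -1.01 and without replicate 2 it was -0.41. Oligodendrocyte markers in the same nuclei, 8 of 8 detected, summed to 1015 CPM in WT, 774 and 704 in PS19 and 1039 in TG_PS19, so that both PS19 libraries were low in these as well. The 8 astrocyte markers gave 722, 483, 464 and 685, with Aldh1l1 at 0 in PS19 replicate 1. Mitochondrial transcripts summed to 2600, 2098, 1240 and 2321 CPM, the same order over libraries as Aplp1. The 8 microglial markers themselves gave 13600, 11420, 10110 and 12060, again with both PS19 libraries lowest. The part of these in the microglial results was not tested.

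Bin1 was higher in TG_PS19 microglia than in PS19 microglia, by 0.52 ± 0.15 (edgeR adjusted p = 0.013), with the levels given above. TG_PS19 was the highest of the 4 libraries and both PS19 libraries were the lowest. Picalm had the same order with PS19 replicate 2 above WT, and its difference of 0.37 ± 0.15 was not called (adjusted p = 0.10). Within cluster 10 Bin1 was 513 CPM in WT, 531 and 509 in PS19 and 598 in TG_PS19, and within cluster 15 it was 466, 403, 453 and 625. The change of Bin1 in microglia was not shown to differ from that in dentate granule neurons (difference 0.17 ± 0.17, edgeR adjusted p = 0.87), oligodendrocytes (0.41 ± 0.14, adjusted p = 0.14) or astrocytes (0.40 ± 0.25, adjusted p = 0.65).

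All 4 microglial calls ended when putative doublets were kept. Those nuclei raised the UMIs of the class from 971881 to 1541874 in WT, from 611112 to 783722 and 785289 to 1018411 in PS19, and from 710601 to 1164674 in TG_PS19. With them Aplp2 was 108, 130, 147 and 100.5 CPM, the log2 differences were 0.38 (edgeR adjusted p = 0.49) and -0.40 (0.41), and both PS19 libraries still lay above the others. Bin1 moved to 0.30 (adjusted p = 0.45) and Aplp1 to -0.57 (0.12). Over all alternatives the adjusted p ran from 0.010 to 0.9998 and from 0.0077 to 0.9997 for the Aplp2 results, from 0.0090 to 0.81 for Bin1 and from 0.0062 to 0.9998 for Aplp1, with every direction kept. Class totals ended the calls of Aplp1, of Bin1 and of Aplp2 for PS19 against WT, and thinning ended all 4. With TG_PS19 nuclei that had Y-linked UMIs and no Xist UMI, the Aplp2 result for TG_PS19 against PS19 was not called (edgeR adjusted p = 0.16).

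**Figure D4:**
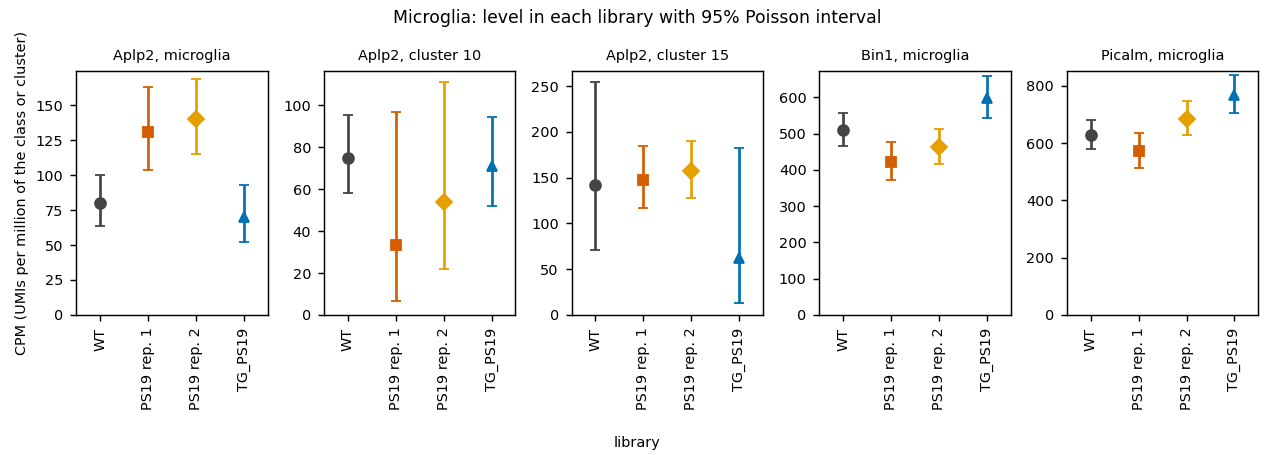
CPM with 95% Poisson interval in each library for Aplp2 in all microglia and in clusters 10 and 15 of the finer resolution, and for Bin1 and Picalm in all microglia. In all microglia both PS19 libraries are above WT and TG_PS19 for Aplp2 (131 and 140 against 80.3 and 70.4). Within each cluster the intervals of PS19 and WT overlap. They are wide there, with 46 and 50 PS19 nuclei in cluster 10 and 40 WT nuclei in cluster 15. The overlap cannot tell whether PS19 and WT differed within a cluster.

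Of 32 other genes of precursor processing, 344 combinations with a class were tested. In PS19 against WT 5 were higher and 6 lower (3.20%, beside 2.82% of all genes), in TG_PS19 against PS19 3 higher and 5 lower (2.33%, beside 4.58%) and in TG_PS19 against WT 2 higher and 3 lower (1.45%, beside 1.70%). The list's median log2 difference was -0.01, -0.04 and -0.04. Bace2, the homologue of Bace1, rose in PS19 astrocytes by 2.64 ± 0.40 against WT (edgeR adjusted p = 6.2e-09) and was lower by 3.47 ± 0.52 in TG_PS19 than in PS19 (log2 difference -3.47, adjusted p = 2.3e-09). Its levels there were 2.24 CPM in WT, 15.7 and 13.3 in PS19 and 1.12 in TG_PS19, from 19, 38, 44 and 6 UMIs, and the PS19 pair stood clear of the other libraries. Of the PS19 UMIs of Bace2, 33 of 38 and 44 of 44 lay in astrocyte cluster 13, whose share of astrocytes differed between genotypes as given above. Within cluster 13 Bace2 was 18.3 CPM in WT (95% Poisson interval 8.35 to 34.7), 56.0 and 59.3 in PS19 (38.6 to 78.7 and 43.1 to 79.6) and 19.2 in TG_PS19 (5.23 to 49.1). Both PS19 libraries thus remained above the others there, from 9, 33, 44 and 4 UMIs and with no test.

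In microglia Apbb2, which encodes an adaptor that binds the cytoplasmic tail of the precursor protein, was 252 CPM in WT, 643 and 600 in PS19 and 193 in TG_PS19. The log2 differences were 1.30 ± 0.16 for PS19 against WT (edgeR adjusted p = 2.3e-11) and -1.60 ± 0.18 for TG_PS19 against PS19 (adjusted p = 6.1e-14). Gsap, which encodes a γ-secretase activating protein, had 192, 349, 363 and 227 CPM, and differences of 0.89 ± 0.17 (edgeR adjusted p = 2.2e-05) and -0.57 ± 0.17 (adjusted p = 0.019). Both genes thus had both PS19 libraries above the others. Cluster 15 held 82.0% and 82.3% of PS19 microglia, against 6.90% in WT and 6.88% in TG_PS19. Within cluster 15 Apbb2 was 531, 699, 673 and 292 CPM and Gsap 375, 388, 389 and 375, in the order WT, PS19 and TG_PS19. The WT and TG_PS19 values of cluster 15 rest on 41 and 14 UMIs for Apbb2 and on 29 and 18 for Gsap. For Gsap the Poisson intervals there were 251 to 539 CPM in WT and 222 to 593 in TG_PS19. The Gsap values were nearly level, but these counts cannot tell whether Gsap differed between libraries within cluster 15. Within cluster 10 Apbb2 was 228, 321, 231 and 186 CPM and Gsap 177, 122, 231 and 216. The PS19 values of cluster 10 rest on 29 and 30 UMIs for Apbb2 and on 11 and 30 for Gsap. In dentate granule neurons Itm2b, an inhibitor of precursor processing, was 316 CPM in WT, 264 and 204 in PS19 and 192 in TG_PS19, and its paralogue Itm2c 87.7, 84.4, 60.4 and 54.7. For both, PS19 replicate 2 was nearer to TG_PS19 than to its partner, as for Aplp1. Their differences for TG_PS19 against WT were -0.60 ± 0.11 (edgeR adjusted p = 1.5e-05) and -0.57 ± 0.13 (adjusted p = 0.0011).

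The other named members of this list had fewer UMIs or a less even pattern. The neprilysin gene Mme rose in PS19 oligodendrocytes by 2.42 ± 0.74 (edgeR adjusted p = 0.023), from 4 UMIs in WT to 13 and 21, and Apba2 fell by 1.05 ± 0.36 (log2 difference -1.05, adjusted p = 0.0496). Ece2 was lower in TG_PS19 than in PS19 dentate granule neurons (-0.87 ± 0.27, edgeR adjusted p = 0.019). Lrp1b was higher in TG_PS19 fibroblasts than in PS19 (1.76 ± 0.21, edgeR adjusted p = 8.0e-14) and than in WT (0.89 ± 0.22, adjusted p = 0.0047), at 144 CPM in WT, 63.0 and 91.0 in PS19 and 257 in TG_PS19. With TG_PS19 nuclei that had Y-linked UMIs and no Xist UMI the latter turned to -0.16, and with doublets kept to -0.22. Itm2a in astrocytes (-2.87 ± 0.84, edgeR adjusted p = 0.033) rested on 3 UMIs in TG_PS19, and Apba1 in microglia was 0.66 ± 0.18 (adjusted p = 0.048), both for TG_PS19 against WT.

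Of 42 other endocytosis genes, 473 combinations were tested. In PS19 against WT 5 were higher and 6 lower (2.33%, beside 2.82% of all genes). In TG_PS19 against PS19 8 were higher and 4 lower (2.54%, beside 4.58%). For TG_PS19 against WT 3 were higher and 0 lower (0.634%, beside 1.70%). The share called was thus below that of all genes in each comparison. The list's median log2 difference was 0.02, -0.03 and 0.00. Dnm2, the ubiquitous dynamin, was 148 CPM in WT oligodendrocytes, 243 and 235 in PS19 and 156 in TG_PS19, and 161, 254, 247 and 175 in the Enpp6/Hapln2 cluster. In both classes the PS19 pair lay above the others, and PS19 exceeded WT by 0.72 ± 0.13 (edgeR adjusted p = 5.1e-06) and 0.68 ± 0.16 (adjusted p = 0.0016). Amph, which encodes amphiphysin, the neuronal relative of Bin1, was 301.3 CPM in oligodendrocytes of WT, 201 and 232 in PS19 and 342 in TG_PS19. Its difference for TG_PS19 against PS19 was 0.72 ± 0.12 (edgeR adjusted p = 7.9e-07). Oligodendrocyte cluster 4 held 45.0% and 47.3% of the class in PS19, against 31.8% in WT and 33.4% in TG_PS19. The part of this shift in the oligodendrocyte values of Dnm2, Amph, Mme and Apba2 was not tested.

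In microglia the adaptor genes Cd2ap and Epn2 were higher in TG_PS19 than in the PS19 pair, and Dab2 was lower. Cd2ap was 286 CPM in WT, 170 and 204 in PS19 and 283 in TG_PS19, with 0.67 ± 0.18 for TG_PS19 against PS19 (edgeR adjusted p = 0.0043). Epn2 was 76.1, 47.5, 34.4 and 76.0 CPM, with -0.92 ± 0.29 for PS19 against WT (edgeR adjusted p = 0.023) and 1.00 ± 0.31 for TG_PS19 against PS19 (adjusted p = 0.019). Dab2 was 19.5, 40.9, 36.9 and 7.04 CPM, with -2.35 ± 0.57 for TG_PS19 against PS19 (edgeR adjusted p = 0.0014), from 5 UMIs in TG_PS19. Within cluster 15 Cd2ap was 298, 165, 201 and 354 CPM, and Epn2 and Dab2 had 8 UMIs or fewer there in WT and TG_PS19. Within cluster 10 Cd2ap was 285, 199, 216 and 278 CPM, Epn2 80.5, 66.4, 61.7 and 77.0, and Dab2 12.3, 11.1, 7.72 and 7.55. The PS19 values of Epn2 in cluster 10 rest on 6 and 8 UMIs, and those of Dab2 on 1 UMI each. The endophilin gene Sh3gl2 was 30.8 CPM in astrocytes of WT, 14.8 and 15.4 in PS19 and 25.8 in TG_PS19, and it differed by -1.05 ± 0.22 (edgeR adjusted p = 0.00011) and 0.94 ± 0.24 (adjusted p = 0.0018) in the first 2 comparisons. Within astrocyte cluster 2 Sh3gl2 was 32.2, 22.9, 22.7 and 26.3 CPM, and within cluster 13 it was 24.4, 6.79, 9.43 and 33.6, with both PS19 libraries lowest in each. The remaining named results were Hip1 in fibroblasts of PS19 against WT (0.73 ± 0.20, edgeR adjusted p = 0.011), and, for TG_PS19 against WT, Dnajc6 in fibroblasts (0.68 ± 0.17, adjusted p = 0.0048), Sh3kbp1 in dentate granule neurons (0.37 ± 0.12, adjusted p = 0.034) and Amph in the same neurons (0.35 ± 0.11, adjusted p = 0.040).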

How the data were processed

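Single-nucleus libraries were made with the 10x 3′ v3.1 kit, per the labels' protocols. The deposited values are raw UMI counts per feature and barcode. The submitters' processing notes name Cell Ranger 7.1.0 and GRCm38. The use of intronic or strand information in counting is not given in the sources used here. Nuclei with under 500 UMIs, under 300 genes or over 5% mitochondrial UMIs were removed, and the highest Scrublet scores, 0.8% per 1000 barcodes, were removed as putative doublets. Nuclei were clustered (scanpy 1.11.5, 2000 variable genes, 30 components, 15 neighbours, Leiden resolution 1), without the 9 genes and the related lists, and clusters were named from 18 marker lists. Classes with at least 50 nuclei in every library were used. Raw counts were summed per class and library and tested with edgeR 4.0.16 (filterByExpr, TMM, glmQLFit, glmQLFTest), with all 4 libraries in 1 fit. The PS19 pair gave the only residual degree of freedom, so WT and TG_PS19 were assumed to vary like it, and in 8 of 13 classes the variance was taken wholly from the trend over genes. SE is the log2 fold change divided by the root of F. CPM values are unscaled. TMM factors were 0.917 to 0.980 for TG_PS19 and 0.990 to 1.05 for the other libraries. Within classes the PS19 pair differed by 1.52 to 2.45 times counting noise (chi-square per degree of freedom). Poisson and binomial intervals are exact, at 95%, and a count of 0 was set beside the level that 3 counts give. Differences between classes in a change were tested in joint fits with a shared term for PS19 replicate. The tests were checked on counts simulated with the same small spread for every gene and no further difference between the PS19 libraries. For PS19 against WT, 1.5-fold changes were called in 9.43% of changed genes in dentate granule neurons, 13.85% in oligodendrocytes and 1.41% in microglia. For 2-fold changes these shares were 49.35%, 46.67% and 15.52%. Alternatives were DESeq2 1.42.0, other scaling, no filter, a robust prior, adjusted residual degrees of freedom, doublets kept, resolution 2, thinning to 1000 UMIs, TG_PS19 nuclei with Y-linked UMIs alone, and each PS19 library left out. All 9 gene identifiers matched GENCODE M21 by version, and 7 of the 9 genes were in the promoter table. The genes, the lists and the marker sets were chosen with earlier results of these data known. All members are named, and from each related list up to 5 called combinations with the largest change per comparison. Clusters within a class were described after their values were seen.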

Additional observations from a re-analysis of the deposited data

Results flagged for a closer look

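Changes that differed between microglia and another class, by a joint edgeR fit of both classes at an adjusted p under 0.05, were found for Aplp2 and Aplp1 alone among the 9 genes. For Aplp2 the change from WT to PS19 exceeded that in dentate granule neurons by 1.02, in oligodendrocytes by 0.86 and in astrocytes by 1.07 on the log2 scale. The change of Aplp2 from PS19 to TG_PS19 differed from that in oligodendrocytes by -0.91 (edgeR adjusted p = 0.023) and from that in astrocytes by -0.97 (adjusted p = 0.022). The difference from dentate granule neurons was -0.76 and missed the threshold (edgeR adjusted p = 0.17). For Aplp1 the change from PS19 to TG_PS19 in microglia exceeded that in dentate granule neurons by 1.00 (edgeR adjusted p = 0.0040) and in oligodendrocytes by 1.08 (adjusted p = 0.00027), and its change from WT to PS19 differed from that in oligodendrocytes by -0.67 (adjusted p = 0.036). With putative doublets kept, or with nuclei thinned to 1000 UMIs, none of these differences passed the threshold, and their directions were kept. The differences for PS19 to TG_PS19 also missed the threshold in TG_PS19 nuclei with Y-linked UMIs and no Xist UMI. Losses were not limited to these alternatives. Over all alternatives a called difference missed the threshold 7 times against dentate granule neurons, 19 times against oligodendrocytes and 8 times against astrocytes. In 1 alternative a difference from astrocytes that was not called in the main fit passed it.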

How the results depend on the processing

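No paired analysis was possible because only the PS19 libraries carry replicate numbers. The number of called combinations for PS19 against WT went from 2 to 1 with class totals, with no filter and with doublets kept, and to 0 with DESeq2 and with thinning. Of the 2 original calls, the 1 kept with no filter was Aplp1 in microglia, and none was kept with class totals or doublets kept, where the 1 call was Aplp1 in dentate granule neurons and in fibroblasts, respectively. For TG_PS19 against PS19 it went from 5 to 0 with DESeq2 and to 1 with thinning, and for TG_PS19 against WT from 4 to 2 with no filter, to 0 with DESeq2 and to 1 with thinning, which leaves fewer UMIs. For DESeq2 the cause was not tested. Some alternatives also added calls. With class totals Aplp1 was also called lower in TG_PS19 than in WT in CA1 pyramidal neurons, astrocytes and the Enpp6/Hapln2 cluster. With adjusted residual degrees of freedom Aplp1 was also called lower in PS19 than in WT dentate granule neurons. With doublets kept Bin1 was called higher in TG_PS19 than PS19 astrocytes (edgeR adjusted p = 0.0033) and dentate granule neurons (adjusted p = 0.048). Leaving out a PS19 library leaves no residual degree of freedom, so no count was made. None of the 11 called fold changes of the 9 genes changed sign in 132 alternative values. Of these, 22 leave out a PS19 library and have no test, and 35 of the other 110 missed the threshold. With DESeq2 all 11 missed it, at adjusted p of 0.61 to 0.9999, and with thinning 9 of 11 did. Among related genes, Lrp1b in fibroblasts (TG_PS19 against WT) turned to -0.22 with doublets kept and to -0.16 in TG_PS19 nuclei with Y-linked UMIs alone. Counts of related genes fell to 1, 3 and 0 (precursor processing) and 1, 1 and 0 (endocytosis) with DESeq2 in the 3 comparisons. Class totals moved the median of all genes by up to -0.18 (TG_PS19 against PS19).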
